A study of Arabidopsis thaliana with 9 samples.

Results

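The LATERAL ORGAN BOUNDARIES DOMAIN (LBD) genes are a plant transcription factor family named after LOB, and AS2 is its other founding member. The family was taken here as the protein-coding genes whose symbol or synonym is LOB, AS2 or LBD with a number from 1 to 42. The gene table held 42 such genes among 27444 protein-coding genes of the 5 nuclear chromosomes. LBD6 is AS2, and a gene named LBD34 was not analysed here. A member was called bound when a peak of FIE overlapped its gene body by 1 bp or more. FIE belongs to Polycomb repressive complex 2 (PRC2), which methylates histone H3 at lysine 27 and keeps developmental genes silent.

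LBD proteins carry a LOB domain, with which they bind DNA, and most act in organ boundaries, leaf shape, root branching, vascular tissue, pollen or nitrogen responses. Class I holds most of the family, including LOB, AS2 and the lateral root genes, and class II holds LBD37 to LBD42. AS2 works with the MYB protein AS1 to keep class I KNOX homeobox genes off in leaves, and in Arabidopsis this pair is known to bring PRC2 to KNOX genes.

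Chromatin bound by FIE was precipitated with an anti-FIE antibody and sequenced from Arabidopsis thaliana plants of the strain Ws, 30 hr old, grown on plates in long days. The knockdown group carried 2 RNA interference transgenes, pRNAi-BPC and pRNAi-ZnF, in 3 replicates. BPC proteins are plant factors that bind GAGA motifs, ZnF is not spelled out in the labels, and neither the promoters of the transgenes nor the remaining levels of their targets are given in the sources used here. The wild type carried no transgene and was also sampled in 3 replicates, and 3 wild-type input samples made up the third group. The study compared FIE binding in plants carrying these transgenes with that in plants lacking them. The files gave 1 peak list per anti-FIE group, with 4882 peaks in the knockdown and 6540 in the wild type. Replicate spread could not be measured, no test between the groups was possible, and every difference below is one between 2 lists. Peaks from plants taken as a whole do not tell in which cells FIE was bound.

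No LBD gene carried a FIE peak in the knockdown, whereas 13 carried at least 1 in the wild type. In the knockdown list 0 of 42 members were bound, against a background of 4.39% of all protein-coding genes. At that background share 1.85 of 42 genes would be bound, so a count of 0 is close to it. In the wild-type list 13 of 42 members were bound (31.0%), against 9.94% of all protein-coding genes, a share that would give 4.17 genes. All 13 members bound in the wild type lacked a knockdown peak. Over all protein-coding genes bound in the wild type 92.4% lacked one, so the complete lack at LBD genes is near what bound genes showed in general.

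The knockdown list was shallower, and 5 of the 13 bound members had a wild-type peak strong enough to have been listed at its depth. The peak values gave a background in the knockdown list of 0.471 times that of the wild-type list, which was taken as the ratio of depths. Summit pileup (fragments over the summit) and background of each wild-type peak were both multiplied by this ratio. The peak was said to pass at the knockdown depth if the scaled −log10 p reached 12.4, below which the knockdown list held no peak. LBD30, LBD39, LBD25, LBD37 and LBD36 passed, which is 11.9% of the family, against 2.82% of all protein-coding genes. None of the 5 had a knockdown peak, and 89.9% of all genes that passed had none. For the remaining 8 bound members a loss of FIE was not detectable at this depth. The knockdown plants had no input of their own in the series.

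LBD30 (JLO, AT4G00220), which acts in organ boundaries and in water-conducting cells, had the highest fold enrichment of the family. No knockdown peak lay nearer than 11300 bp to its body. In the wild type a single peak of 1174 bp (chromosome 4, 89686 to 90859 on TAIR10) covered 952 bp of the gene, at a fold of 9.80. At the summit 174 fragments stood over a background of 16.9. Its fold ranked 133 among 6540 wild-type peaks. Fold enrichment is the authors' ratio of the pileup to the local background at the summit, and is compared here within the wild-type list. A 95% exact Poisson interval for the summit pileup put this fold between 8.41 and 11.36, an interval that covers counting error only. It did not overlap the interval of any other member.

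**Figure D1:**
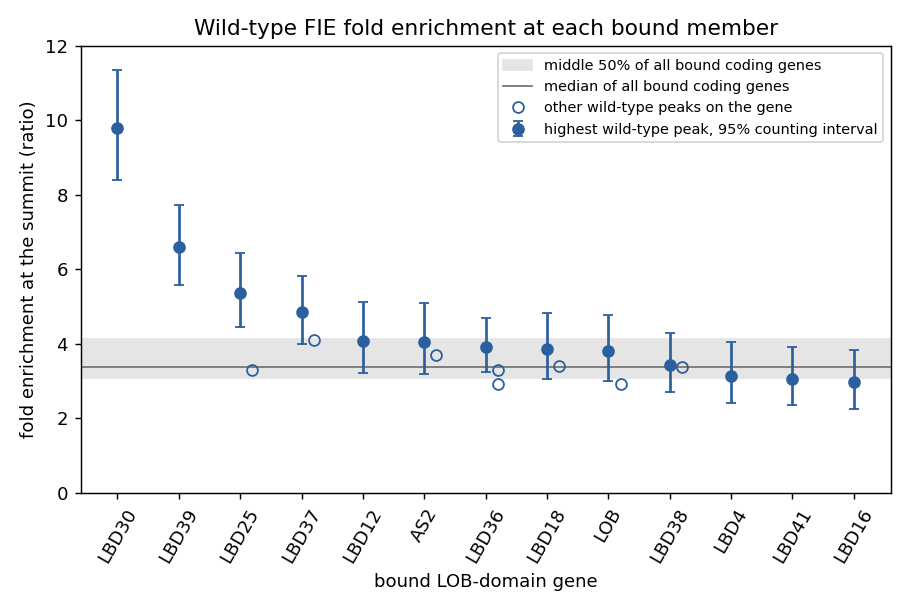
Fold enrichment at the summit (ratio, vertical axis) of wild-type FIE peaks on each of the 13 bound LOB-domain genes, with filled points for the highest peak and its 95% Poisson interval, open points for other peaks, and the median (3.37) and interquartile range (3.08 to 4.13) of the highest folds of all bound coding genes in grey. LBD30 at 9.80 stands alone, LBD39, LBD25 and LBD37 follow, and the remaining 9 lie between 2.96 and 4.08.

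Of the genes grouped under leaf shape and organ boundaries 0 of 5 were bound in the knockdown and 5 of 5 in the wild type. Besides LBD30 these were LBD25, AS2, LBD36 and LOB. The shares over all protein-coding genes were 4.39% in the knockdown and 9.94% in the wild type. Role groups were drawn up with earlier results of these data known, so the complete count is a description only. LBD25 (AT3G27650) is also listed with the pollen genes below, and its place in the leaf and boundary group is an assignment made here. It had 2 wild-type peaks, one of fold 5.37 at its lower-coordinate end (chromosome 3, 10238338 to 10239209) and one of fold 3.30 (10239813 to 10240437). AS2 (AT1G65620), the partner of AS1, had one peak of fold 3.69 across its lower-coordinate end (chromosome 1, 24397892 to 24398905) and one of fold 4.06 near the other end (24400496 to 24400943). Further wild-type peaks lay 838 bp to one side of AS2 and 183 bp to the other, so that peaks framed the gene. The 4 folds in and around AS2 lay between 3.10 and 4.06, and their Poisson intervals overlapped. With a scaled −log10 p of 12.0, the strongest AS2 peak was just short of the level that passes. The table of genes used here gives no strand, so the ends are named by coordinate.

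LBD36 (ASL1, AT5G66870), which shapes leaves and petals together with AS2, was covered almost throughout. It had no knockdown peak within 31239 bp. Its 3 wild-type peaks covered 2771 of its 2957 bp (93.7%), and the longest ran over 2385 bp (chromosome 5, 26705585 to 26707969) at a fold of 3.91. Its summit held 113 fragments over a background of 28.2, the highest background among peaks on members. Shorter peaks flanked it 626 bp and 554 bp away, at folds of 2.74 and 2.81. The broad cover thus came with a modest fold. LOB (AT5G63090) is switched on at the boundaries of lateral organs, where it limits brassinosteroid levels. It had wild-type peaks of 822 bp at fold 3.80 (chromosome 5, 25308560 to 25309381) and 211 bp at fold 2.93 (25310306 to 25310516). The nearest knockdown peak was 101578 bp away from LOB and 19546 bp away from AS2.

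**Figure D2:**
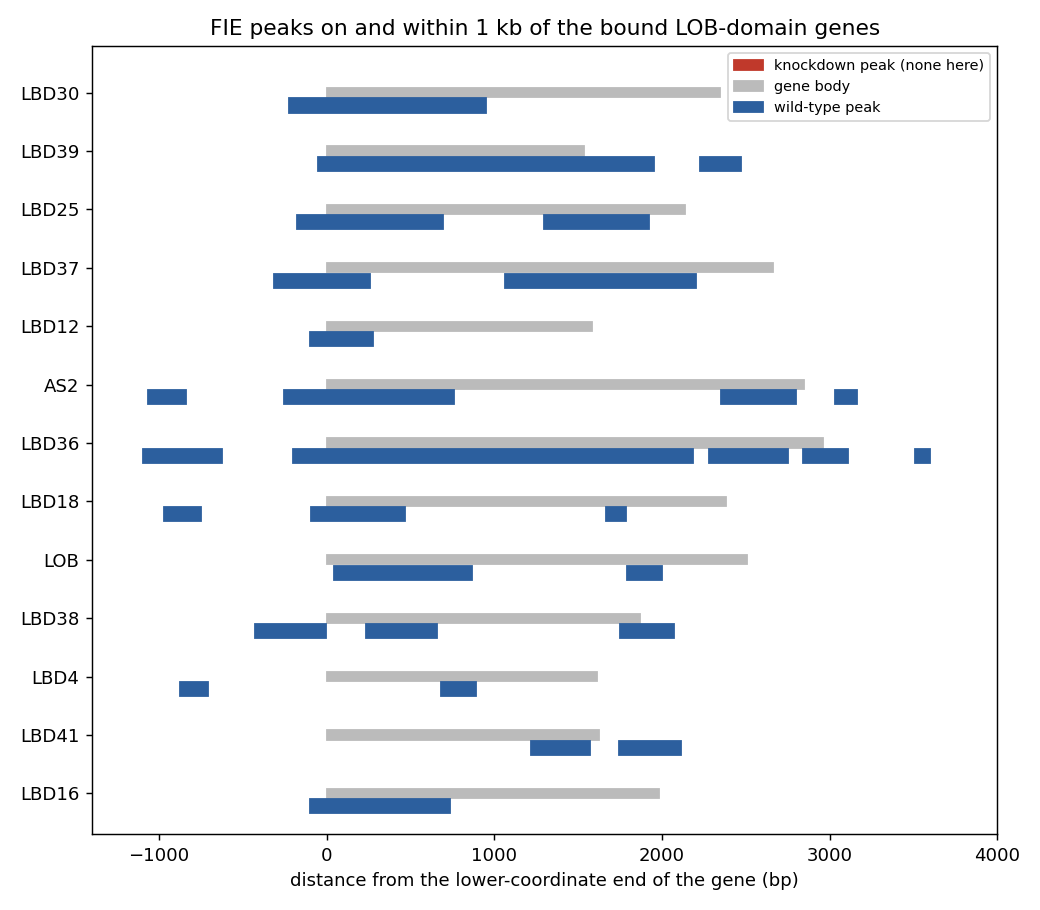
Map of FIE peaks (knockdown above the gene bar, wild type below it) on and within 1 kb of the 13 bound LOB-domain genes, by distance in bp from the lower-coordinate end of each gene body in grey. No knockdown peak falls in any of these windows, LBD39 is covered over 100% of its length and LBD36 over 93.7%, and 7 genes carry 2 or 3 separate wild-type peaks.

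The other role group bound throughout in the wild type was also drawn up with earlier results known. It held the nitrogen and anthocyanin genes LBD37, LBD38 and LBD39, with 0 of 3 bound in the knockdown and 3 of 3 in the wild type. They are class II genes known to repress anthocyanin synthesis and nitrate uptake genes. LBD39 (AT4G37540) lay wholly under a wild-type peak of 2002 bp (chromosome 4, 17639342 to 17641343) with a fold of 6.60. LBD37 (AT5G67420) had wild-type peaks of fold 4.84 across its lower-coordinate end (chromosome 5, 26903555 to 26904125) and fold 4.10 inside the gene (26904930 to 26906066), and both passed at the knockdown depth. LBD38 (AT3G49940) was weaker. Its wild-type peaks had folds of 3.43 (chromosome 3, 18514503 to 18514924) and 3.37 (18516016 to 18516336), and another peak ended 3 bp before the gene. The Poisson interval of LBD39, 5.59 to 7.74, did not overlap that of LBD38, 2.71 to 4.29, while that of LBD37, 3.99 to 5.81, overlapped both. The summit of this LBD37 peak lay just outside the gene. The LBD37 peak of fold 4.10, with its summit inside, had an interval of 3.29 to 5.05, which overlapped that of LBD38 but not that of LBD39. Of the other class II genes, the hypoxia-induced gene LBD41 (AT3G02550) had a wild-type peak of fold 3.05 (chromosome 3, 537719 to 538071). A stronger wild-type peak, of fold 3.85, lay just outside LBD41, 118 bp from its end (538244 to 538611). LBD40 and LBD42 had none. Class II as a whole was bound at 0 of 6 in the knockdown and 4 of 6 in the wild type. For class I the counts were 0 of 36 in the knockdown and 9 of 36 in the wild type. Over all protein-coding genes 4.39% were bound in the knockdown and 9.94% in the wild type, so the counts of 0 are near the knockdown share.

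Of the lateral root and callus genes 0 of 7 were bound in the knockdown and 2 of 7 in the wild type (28.6%), a share near the 31.0% of the whole family and above the 9.94% of all protein-coding genes. Several genes of this group, though not all, are known to be induced by auxin and to act downstream of ARF7 and ARF19 in root branching or callus formation. LBD18 (AT2G45420) had wild-type peaks of fold 3.86 (chromosome 2, 18718258 to 18718815) and 3.39 (18720012 to 18720136). LBD16 (AT2G42430) had the lowest fold of the bound members, 2.96, over a peak of 838 bp (chromosome 2, 17663252 to 17664089). LBD14, LBD17, LBD19, LBD29 and LBD33 were not bound. Both were below the level that would pass at the knockdown depth, with a scaled −log10 p of 6.77 for LBD16 and 11.6 for LBD18.

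Among vascular and radial growth genes 0 of 8 were bound in the knockdown and 3 of 8 in the wild type, of which LBD18 and LBD30 are described above. The one not yet named was LBD4 (AT1G31320), a regulator at the edge of the vascular cambium, with a wild-type peak of 205 bp and fold 3.14 (chromosome 1, 11213643 to 11213847). LBD1, LBD3, LBD11, LBD15 and LBD31 were not bound. Of the pollen genes, LBD25 and LBD36 were bound in the wild type and LBD10, LBD22 and LBD27 were not, with 0 of 5 bound in the knockdown. LBD41 was bound in the wild type among 3 genes of stress and defence, where LBD20 and LBD40 were not. Members with no role group contributed 1 bound gene of 15. This was LBD12 (ASL5, AT2G30130), with a wild-type peak of fold 4.08 across its lower-coordinate end (chromosome 2, 12868362 to 12868737). The groups overlap and follow roles described for Arabidopsis, and their counts were not tested against each other. Beside them stand the shares over all protein-coding genes, 4.39% in the knockdown and 9.94% in the wild type.

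**Figure D3:**
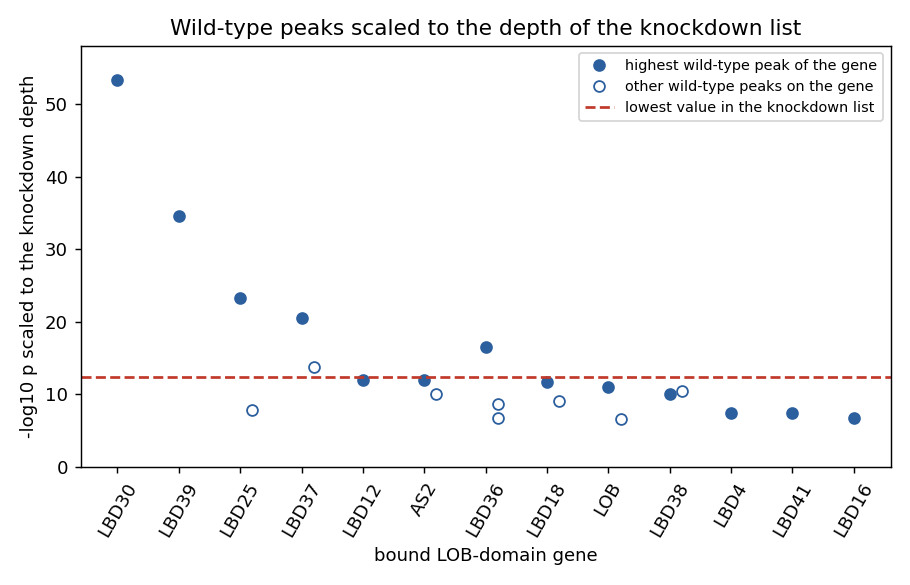
The −log10 p that each wild-type peak on a LOB-domain gene would have at the knockdown depth (vertical axis, filled points for the highest-fold peak of the gene, open points for others), with the lowest −log10 p of the knockdown list (12.4) as a dashed line. LBD30 (53.3), LBD39 (34.6), LBD25 (23.3), LBD37 (20.5) and LBD36 (16.5) lie above the line, and AS2 (12.0), LBD12 (11.9) and LBD18 (11.6) lie just under it.

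Where LBD genes were bound, FIE covered more of them than of other bound genes. The 13 bound members had a median of 952 bp under wild-type peaks, or 40.6% of the body, against 310 bp and 16.3% over all 2727 bound protein-coding genes. Of the 13, 7 had 2 or more peaks (53.8%), against 18.5% of all bound genes. The median of the highest fold was 3.91 at members and 3.37 at all bound genes, a smaller gap, and 3 members, LBD4, LBD41 and LBD16, were below that value for all bound genes. These are descriptions of one list and carry no test. The 21 wild-type peaks on members overlapped no other gene of the table, coding or not. Peaks reached past an end of the member in 11 of the 21 cases.

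All bound members were longer than 1500 bp, while over all genes the share bound was alike above and below that length. None of the 20 members up to 1500 bp long was bound in the wild type, against 13 of the 22 longer ones (59.1%). Over all protein-coding genes 837 of 8333 (10.04%) were bound up to 1500 bp and 1890 of 19111 (9.89%) above. For 20 short members a count of 0 is near the share of short genes in general. It was the longer members whose share stood above that of all genes of their length. The shortest bound member was LBD39 at 1533 bp and the longest LBD36 at 2957 bp. In the range from 2000 to 3000 bp 7 of 8 members were bound, with LBD11 as the exception, and the longest member of all, LBD26 at 3230 bp, was not bound. The limit of 1500 bp was chosen after the values were seen.

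**Figure D4:**
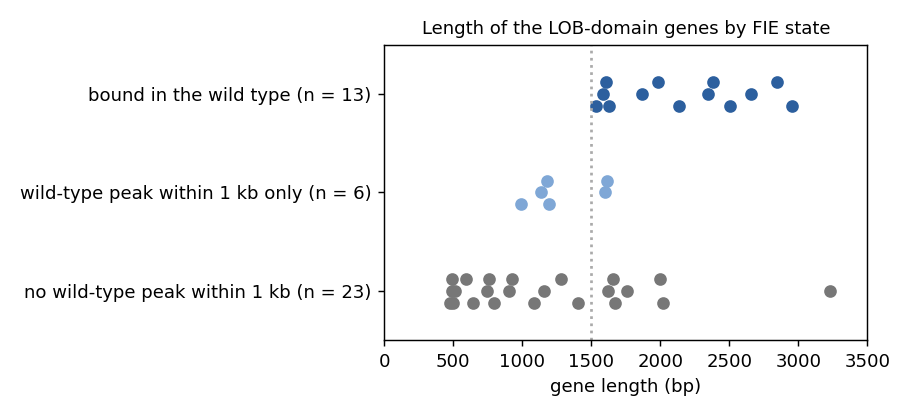
Gene length in bp (horizontal axis) of the 42 LOB-domain genes, 1 point a gene, in rows for genes bound in the wild type, genes with a wild-type peak only within 1 kb of the body, and the remainder (points are spread vertically for legibility). All 13 bound genes lie right of the dotted line at 1500 bp, and 9 unbound genes lie there too.

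Beyond the gene bodies, 1 member had a knockdown peak and 19 had a wild-type peak on the body or within 1 kb of it. The shares over all protein-coding genes were 7.11% in the knockdown and 15.7% in the wild type. The 1 knockdown peak lay 932 bp from LBD23, was 72 bp long and had a fold of 3.90 in its own list (chromosome 3, 9792049 to 9792120). It lay on the next coding gene on that side, AT3G26630, which is 149 bp from LBD23. LBD23 had no wild-type peak within 12224 bp, and its neighbour within the family, LBD24, was unbound too. The 6 members with a wild-type peak nearby and none on the body were LBD3 (83 bp away), LBD19 (380 bp), LBD40 (407 bp), LBD17 (630 bp), LBD1 (754 bp) and LBD31 (856 bp). The peak near the cytokinin-response gene LBD3 (ASL9) had a fold of 3.07 and that near LBD40 a fold of 3.74. The peak near LBD1 had a fold of 2.83, the same as the 1 wild-type peak on the coding gene AT1G07902, 171 bp from LBD1. The remaining 23 members had no wild-type peak within 1 kb, and their nearest one was between 1125 bp (LBD42) and 44235 bp (LBD20) away. Not named so far among them are LBD2, LBD5, LBD7, LBD8, LBD9, LBD13, LBD21, LBD28, LBD32 and LBD35. LBD5 was the 1 member inside a gene-poor region.

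Members that lie side by side on a chromosome differed in whether a FIE peak lay on the gene body. In 3 pairs no other coding gene lay between the partners, and in each pair 1 partner was bound in the wild type and the other was not, with 0 knockdown peaks on or between them. LBD16 was bound, and LBD17, 3363 bp away, was not. LBD18 was bound, and LBD19, 5136 bp away, was not. LBD30 was bound, and LBD31, 2836 bp away, was not. Wild-type peaks also lay wholly between the partners, with 1 between LBD16 and LBD17 (fold 3.40), 2 between LBD19 and LBD18 (folds 3.11 and 3.15) and 1 between LBD31 and LBD30 (fold 3.17). The unbound partner was the shorter gene in every pair. Each unbound partner had a wild-type peak within 1 kb, so with 1 kb added on both sides no pair differed. The peak near LBD17 had a higher fold than the one on LBD16 (2.96), although their Poisson intervals overlapped.

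**Figure D5:**
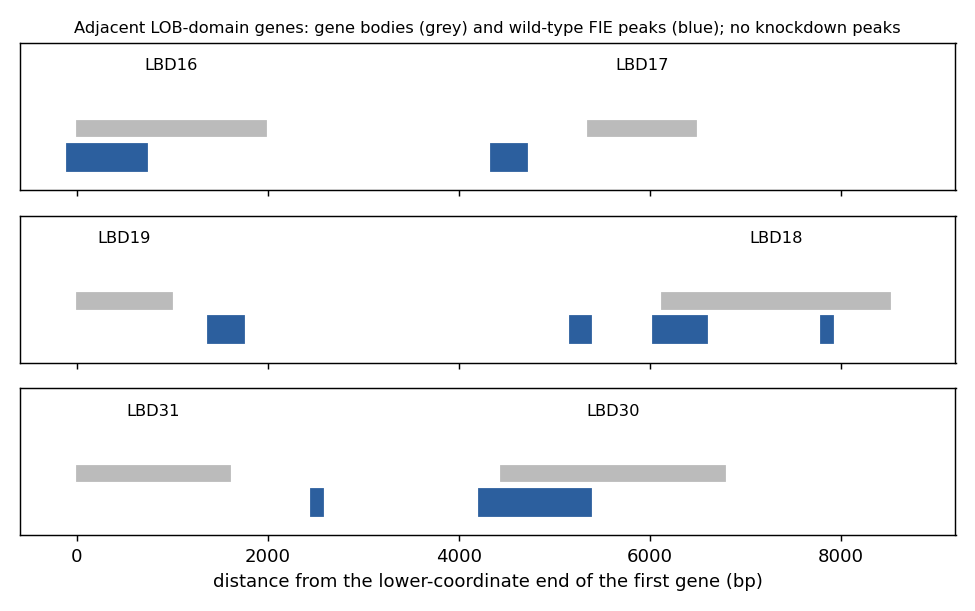
Maps of the 3 pairs of adjacent LOB-domain genes, by distance in bp from the lower-coordinate end of the first gene, with gene bodies in grey and wild-type FIE peaks in blue. One gene of each pair (LBD16, LBD18, LBD30) carries a peak, its partner carries none on the body, and 1 or 2 peaks lie between them.

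The nearest coding genes beside the bound members carried FIE at a share near that beside any bound gene. Of 26 such neighbours 0 had a knockdown peak and 5 had a wild-type peak (19.2%), against 19.0% of the neighbours of all bound protein-coding genes in the wild type. Given the knockdown background of 4.39%, a count of 0 of 26 is close to background. Beside unbound members 3 of 58 neighbours had a knockdown peak and 11 a wild-type peak (18.97%), with LBD16, LBD18 and LBD30 among the 11. The wild-type share was thus alike beside bound and unbound members. Among the 5 beside bound members the highest was AHL22, next to LBD18, with a wild-type fold of 11.97. Beside LBD4 both neighbours were bound, with folds of 4.54 and 2.98, the weaker one at the photosystem gene PSAF.

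Other genes of the pathways in which LBD proteins act were also partly bound. Of 34 genes in 5 modules 2 had a knockdown peak and 16 a wild-type peak, against 4.39% of all protein-coding genes in the knockdown and 9.94% in the wild type. The modules were put together by hand with earlier results of these data known, so these counts do not measure enrichment. Of the 16 genes 15 lacked a knockdown peak, near the 92.4% over all bound genes. A wild-type peak that would pass at the knockdown depth was present at 10 of the 16, against 28.4% of all bound protein-coding genes. Of these 10 genes 9 lacked a knockdown peak, near the 89.9% over all genes that passed. In the AS1-AS2 leaf module 0 of 8 were bound in the knockdown and 5 of 8 in the wild type, the KNOX genes STM (fold 8.51), KNAT1 (7.41), KNAT6 (4.65) and KNAT2 (3.10), and the leaf polarity gene KAN2 (5.63). AS1, ARF3 and ARF4 had no peak, so of the AS1-AS2 pair AS2 alone carried a wild-type peak. Of the organ boundary genes 1 of 7 was bound in the knockdown and 5 of 7 in the wild type. BOP1, which acts at the leaf base, reached a wild-type fold of 19.62, and BOP2 4.80. CUC2 had 9.63 and LOF1 4.24. CUC3 had a knockdown peak over 112 bp of its body, against wild-type peaks over 1057 bp. BAS1, a brassinosteroid-inactivating target of LOB, and CUC1 had none.

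The genes listed for the root, vascular and nitrogen pathways included 6 bound in the wild type, of which PUCHI alone had a peak that would pass at the knockdown depth. Over all protein-coding genes 4.39% were bound in the knockdown and 9.94% in the wild type. Counts of 0 in modules this small are near the knockdown share. In the auxin and lateral root module 0 of 9 genes were bound in the knockdown and 3 of 9 in the wild type. They were PUCHI (fold 5.94), an AP2-type regulator of root primordia, WOX11 (3.34) and ARF19 (2.75), while ARF7, IAA14, LAX3, E2FA, EXPA14 and EXPA17 had no peak. Of 4 vascular genes 0 were bound in the knockdown and VND7, a master regulator of vessel cells, was bound in the wild type, by 4 peaks with a highest fold of 3.58. VND6, PXY and WOX4 were not bound. In the nitrogen and anthocyanin module NIA1 had a knockdown peak over 87 bp and none in the wild type. NIA2, the other nitrate reductase gene, had no knockdown peak and 1186 bp under a wild-type peak of fold 3.84, which would not pass at the knockdown depth. The nitrate transporter gene NRT2.1 was touched by a wild-type peak over 26 bp, and NRT2.2, MYB75 and MYB90 had no peak.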

How the data were processed

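Of 9 samples (3 per group), the authors deposited peaks as 1 narrowPeak table for each of the anti-FIE groups. MACS2 2.1.0.20151222, Bowtie2, bedtools and TAIR10 are named, per the submitters' processing notes, without their roles. Whether replicates were pooled and how input was used: not given in the sources used here. The list with an unexplained abbreviation was taken as the knockdown, the one other anti-FIE group. The deposited columns are a score (the −log10 q times 10, without decimals), the fold ratio at the summit, the −log10 p, the −log10 q (all above 10) and the summit offset.

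Gene positions came from a RefSeq table of TAIR10.1, used to place peaks. Printed coordinates are those of the lists, 1-based. The table has no strand, and no sequence was used, so the planned promoter motif and protein comparisons were not run. The gene body was searched for overlaps of 1 bp. Whole-number pileups and backgrounds were solved from fold and −log10 p under a Poisson model with a pseudocount of 1 (largest misfit 7.27e-04), as tested on simulated data, and relative depth is the median background ratio at 874 summit pairs within 30 bp. Gene-poor regions were the longest runs of 100 kb bins under 0.5 times the median gene number, smoothed over 5 bins. Members, role groups and gene lists were chosen with earlier results of these data known. Every bound member and every member with a peak within 1 kb was named with values. No test was run. Computation used Python 3.11.15, numpy 2.4.6, pandas 2.3.3, scipy 1.17.1 and matplotlib 3.10.9.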

Additional observations from a re-analysis of the deposited data

How the results depend on the processing

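The members' counts of 0 in the knockdown and 13 in the wild type were the same with the summit inside the body and with an overlap of at least 100 bp. With 1 kb added on both sides 1 member was counted in the knockdown, as were 1950 of all coding genes, and in the wild type 19 members and 4298 of all genes. With an overlap of at least 100 bp 664 of all coding genes were bound in the knockdown, against 1206 by any overlap. With peaks at or above the median −log10 q of their list 374 of all coding genes were bound in the knockdown and 1436 in the wild type. That setting dropped LBD4, LBD16 and LBD41 and kept 10 members. With wild-type peaks passing at the knockdown depth 5 members were bound, all 5 without a knockdown peak, among 775 coding genes. Rounding the scaled pileup down, an alternative chosen after seeing the data, gave 5, 5 and 744. The highest fold at a member was the same for 13 members at 100 bp, 12 with the summit rule and 12 with 1 kb added. LBD37 moved to 4.10 with the summit rule, and LBD41 to 3.85 with 1 kb added. The alternative with 1 kb upstream alone was not run, since the gene table has no strand. No paired analysis was possible because each group has 1 list that does not separate its replicates. Depth limits the comparison, since at 8 of the 13 bound members a wild-type peak of the same strength would fall short of the knockdown list.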
